A study of Mus musculus with 8 samples.

Results

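Transcripts of the acetyltransferases CBP (gene Crebbp) and p300 (gene Ep300) and of their CITED partners (genes Cited1, Cited2 and Cited4) were followed in mouse embryonic fibroblasts during direct cardiac reprogramming. The 5 genes were taken by symbol from 50600 listed genes, with the row of highest mean count kept had a symbol been repeated. All 5 had counts, and 4 of them, all but Cited4, were among the 14830 genes for which an adjusted p was deposited in the DMSO and I-CBP112 comparisons. Every group was made from C57BL/6 embryonic fibroblasts that had received retroviruses for Gata4, Hand2, Mef2c and Tbx5 (GHMT), the factor set used to turn fibroblasts towards heart muscle cells. The cells stayed in StemPro-34 serum-free medium and were treated for 7 days with 0.1% ethanol, 1% DMSO, 5 µM I-CBP112 or 5 µM C646. I-CBP112 is a ligand of the CBP and p300 bromodomains, the pockets that read acetylated lysine, and C646 is an inhibitor of their acetyltransferase site. Each treatment had 2 libraries, 8 in all. Cells without GHMT or without any addition were not analysed here.

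CBP and p300 are large, closely related enzymes that acetylate histones and other proteins and bridge DNA-bound transcription factors to the transcription machinery. Among the factors that recruit them are CREB, HIF-1, and the cardiac factors GATA4 and MEF2. The CITED proteins are small nuclear proteins without a DNA-binding domain. Their acidic C-terminal stretch docks on the CH1 (TAZ1) domain of CBP and p300, the same domain that the HIF-1 alpha subunit uses, so that CITED2 is a known competitor of HIF-1. CITED2 is needed for heart, adrenal and left-right development, CITED1 was first described in melanocytic cells and marks nephron progenitors, and CITED4 is known from the growth of the heart in response to exercise.

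A block near the coding end of the CITED genes, where the docking stretch is encoded, is shown. This stretch makes them partners of the same pair of enzymes, while the transcripts of Cited1 and Cited2 behaved differently. The blocks were chosen, in frame, as those near the coding end with most bases shared by the 3 genes. That choice raises their likeness, and the limits of the docking stretch were not located. The blocks are 90 bases of coding sequence without gaps from GENCODE M21 transcripts (GRCm38), each within a single exon, and capitals mark the 52 bases that are identical in the 3 genes. The Cited1 block lies at chrX:102247487-102247576 on the minus strand, the Cited2 block at chr10:17724615-17724704 on the plus strand and the Cited4 block at chr4:120667211-120667300 on the plus strand.
Cited1: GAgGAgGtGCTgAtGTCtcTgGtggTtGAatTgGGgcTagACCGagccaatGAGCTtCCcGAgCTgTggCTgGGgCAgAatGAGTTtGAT
Cited2: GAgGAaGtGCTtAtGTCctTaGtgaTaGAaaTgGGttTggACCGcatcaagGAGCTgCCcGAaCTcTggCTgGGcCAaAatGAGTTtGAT
Cited4: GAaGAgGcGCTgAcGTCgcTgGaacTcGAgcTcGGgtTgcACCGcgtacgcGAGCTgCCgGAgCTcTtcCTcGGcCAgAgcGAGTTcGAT
Cited1 and Cited2 shared 77.8% of these bases, Cited1 and Cited4 66.7%, and Cited2 and Cited4 65.6%. The block covers codons 165 to 194 of 203 in Cited1, 224 to 253 of 269 in Cited2 and 137 to 166 of 182 in Cited4, so in each gene it lies close to the end of the protein. Despite this likeness, no 31-base word of any Cited1, Cited2 or Cited4 transcript occurred in a transcript of another gene. For Crebbp, 1.51% of 31-base words did, and for Ep300 0.803%.

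Per treatment other than ethanol, the authors deposited a table that compares it with a reference; ethanol, which has no table, is taken as that reference. The 3 tables hold no values of single libraries, so a level below is a group mean of 2 libraries, rebuilt from the authors' mean normalised count and fold changes, with a 95% interval from the fitted spread between libraries. The mean normalised counts of all genes summed to 37997801, and the median standard error of the tested genes was 0.185 (log2) in the authors' deposited tables. The Wald statistics of the tested genes, the fold change over its standard error, had an SD of 2.23 for DMSO, 1.86 for I-CBP112 and 0.608 for C646. Fibroblast and heart muscle markers were both present. The summed level of 9 fibroblast markers was 984289 normalised counts in ethanol, 642326 in DMSO, 583826 in I-CBP112 and 974100 in C646, and that of 10 heart muscle markers was 105090 in ethanol, 308456 in DMSO, 299456 in I-CBP112 and 107588 in C646. In such bulk RNA, fewer cells of a type and less RNA per cell cannot be told apart.

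Crebbp and Ep300 were expressed under all 4 treatments, and neither passed the test in any comparison. Crebbp (ENSMUSG00000022521.10, chr16:4081328-4213997, minus strand) had a group mean of 1918 normalised counts in ethanol, 1934 in DMSO, 1994 in I-CBP112 and 1947 in C646. Its 95% interval with ethanol, from 1562 to 2355, covered the other group means. Ep300 (ENSMUSG00000055024.12, chr15:81585351-81652077, plus strand) had 1720.0 in ethanol, 1761 in DMSO, 1602 in I-CBP112 and 1539 in C646. The Ep300 means were lower with both inhibitors than with ethanol or DMSO, but the intervals of the groups overlapped.

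For Crebbp the log2 fold change in the authors' deposited table was 0.01 ± 0.21 (SE) in DMSO, 0.06 ± 0.21 in I-CBP112 and 0.02 ± 0.21 in C646. The 95% intervals of these fold changes for Crebbp ran from 0.754 to 1.35-fold, 0.778 to 1.39-fold and 0.759 to 1.36-fold, computed from the authors' deposited table. Changes of Crebbp inside those limits are not excluded. These intervals are not the limit of detection, which is wider after adjustment over all genes. For Ep300 the authors' deposited table gave 0.03 ± 0.15 in DMSO, -0.10 ± 0.15 in I-CBP112 and -0.16 ± 0.15 in C646. The interval of the Ep300 difference with C646, from the authors' deposited table, was 0.729 to 1.10-fold. The spread between libraries that the fit assigned to Crebbp was wide for its level, with a coefficient of variation of 14.6%, above that of 97.9% of the 2653 genes within 1.5-fold of its mean count. For Ep300 it was 10.2%, above 66.0% of such genes. Cited2 and Cited1 also had a wide spread, 13.1% and 14.4%, above 94.7% and 85.5% of genes of like level.

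**Figure D1:**
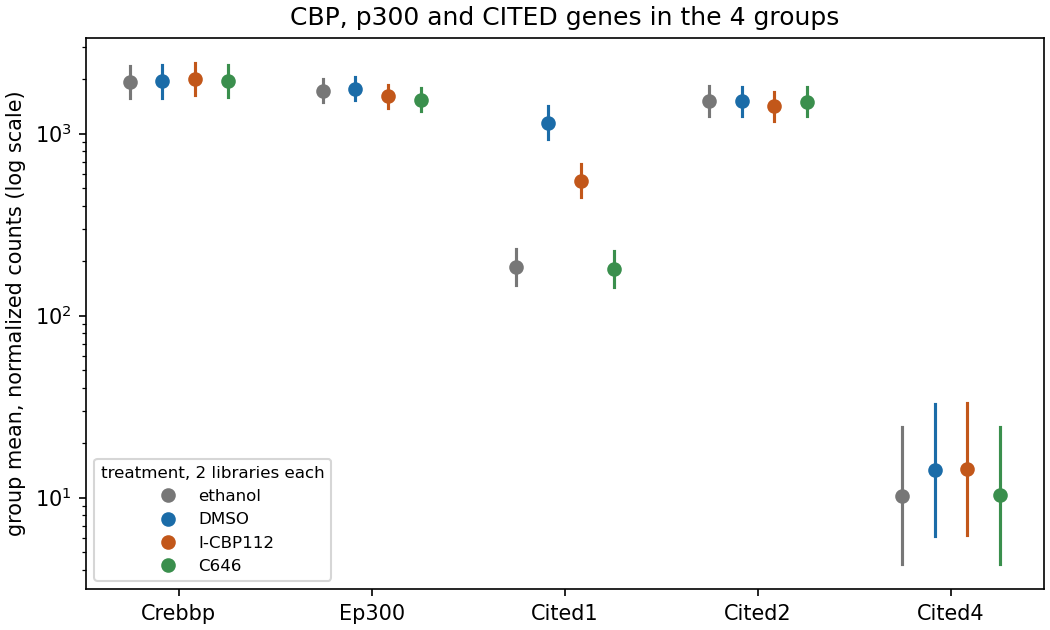
Rebuilt group means of normalised counts (log scale) of the 5 genes under the 4 treatments; points are means of 2 libraries and bars their 95% intervals. Cited1 runs from 181 with C646 to 1150.1 with DMSO, whereas the Crebbp means lie between 1918 and 1994.

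Cited1 was the member that changed. Cited1 (ENSMUSG00000051159.16, chrX:102247381-102252181, minus strand), a coactivator of SMAD4 and other factors, had a group mean of 185 normalised counts with ethanol (95% interval 147 to 231). It reached 1150.1 with DMSO (938 to 1410.3) and 549.5 with I-CBP112 (446 to 677), and stood at 181 with C646 (144 to 226). DMSO was thus highest and I-CBP112 intermediate, and these intervals did not overlap each other or those of ethanol and C646, which lay on one another.

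Relative to ethanol, Cited1 rose 6.23-fold with DMSO (95% interval 4.60 to 8.44, log2 fold change 2.64 ± 0.22) in the authors' deposited table, with a DESeq2 adjusted p of 1.59e-29. It rose 2.98-fold with I-CBP112 (2.19 to 4.05, log2 1.57 ± 0.23, DESeq2 adjusted p = 3.65e-10) in the authors' deposited table. With C646 the fold in the authors' deposited table was 0.979 (0.712 to 1.34, log2 -0.03 ± 0.23, DESeq2 adjusted p = 1). Of the 14830 tested genes, 12 had a higher log2 fold change than Cited1 with DMSO and 49 with I-CBP112 by the authors' deposited tables. The ethanol and DMSO doses differ, 0.1% against 1%, and the sources used here do not name the inhibitors' solvents. The action of an inhibitor and of its solvent therefore cannot be told apart.

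Cited2 did not follow Cited1, and the counts of Cited4 were too low to tell. Cited2 (ENSMUSG00000039910.10, chr10:17723218-17725674, plus strand), the HIF-1 competitor, had a group mean of 1510.3 normalised counts in ethanol, 1507 in DMSO, 1410.3 in I-CBP112 and 1494 in C646. The log2 fold change of Cited2 in the authors' deposited table was -0.0027 ± 0.19 in DMSO, -0.10 ± 0.19 in I-CBP112 and -0.02 ± 0.19 in C646, none past the test. The 95% interval of the Cited2 change with DMSO, from the authors' deposited table, was 0.769 to 1.30-fold. The lower bound for Cited1, 4.60-fold, lies outside it. Cited4 (ENSMUSG00000070803.6, chr4:120666572-120667820, plus strand) was near the lower end of detection, with 10.2 normalised counts with ethanol (95% interval 4.31 to 24.4), 14.3 in DMSO, 14.3 in I-CBP112 and 10.3 in C646. Its fold change with DMSO in the authors' deposited table had an interval from 0.417 to 4.64-fold. With I-CBP112 the interval was 0.419 to 4.66-fold, which holds the 2.98-fold rise of Cited1. Changes of Cited4 within those ranges are not excluded at this depth.

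As a count, 1 of the 4 tested members passed the test with DMSO, where 16.0% of tested genes did (8.07% upward and 7.90% downward). With I-CBP112 it was again 1 of 4, where 9.90% of tested genes passed (4.65% upward and 5.25% downward). With C646 none of the 4 passed DESeq2's test and none had an unadjusted p under 0.05. There the background was 0.00584%, that is 2 of 34250 genes. The median log2 fold change of the 4 tested members was 0.02 in DMSO, -0.02 in I-CBP112 and -0.02 in C646 from the authors' deposited tables, against 0.03, 0.01 and 0.0031 over all tested genes.

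**Figure D2:**
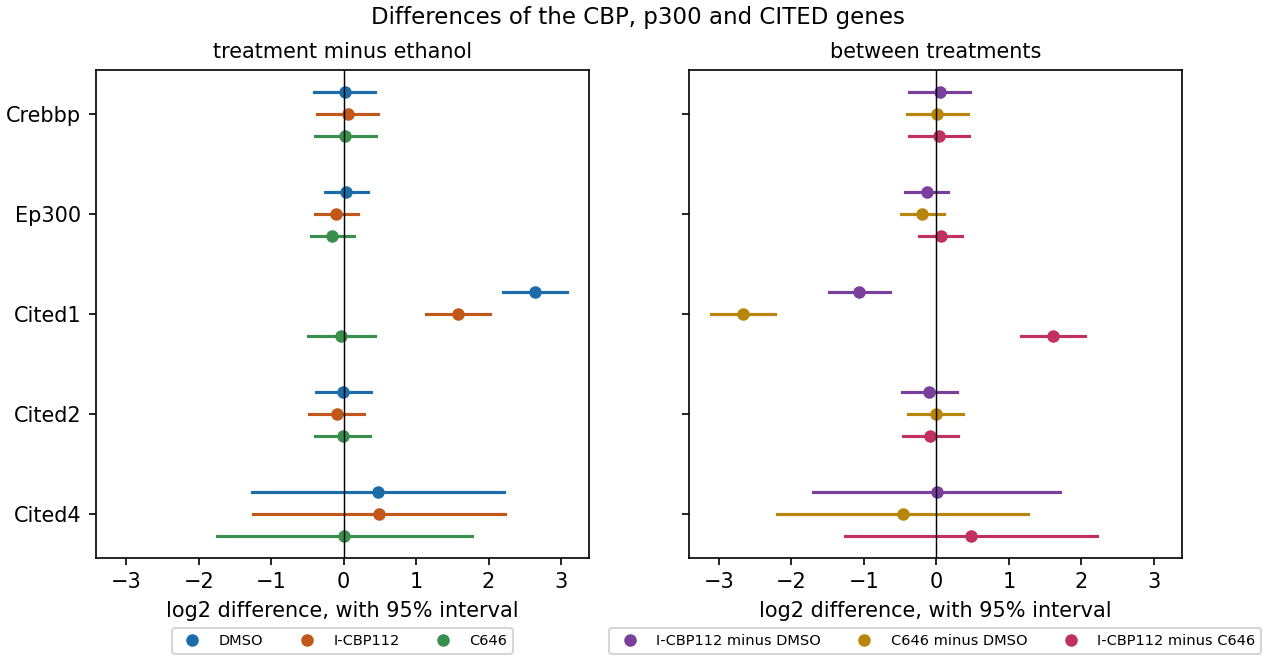
Log2 differences of each gene between treatment and ethanol (left) and between treatments (right); points are the estimates and bars their 95% intervals. Only the Cited1 intervals with DMSO and I-CBP112, and its 3 intervals between treatments, leave 0, and the Cited4 intervals are the widest.

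**Figure D3:**
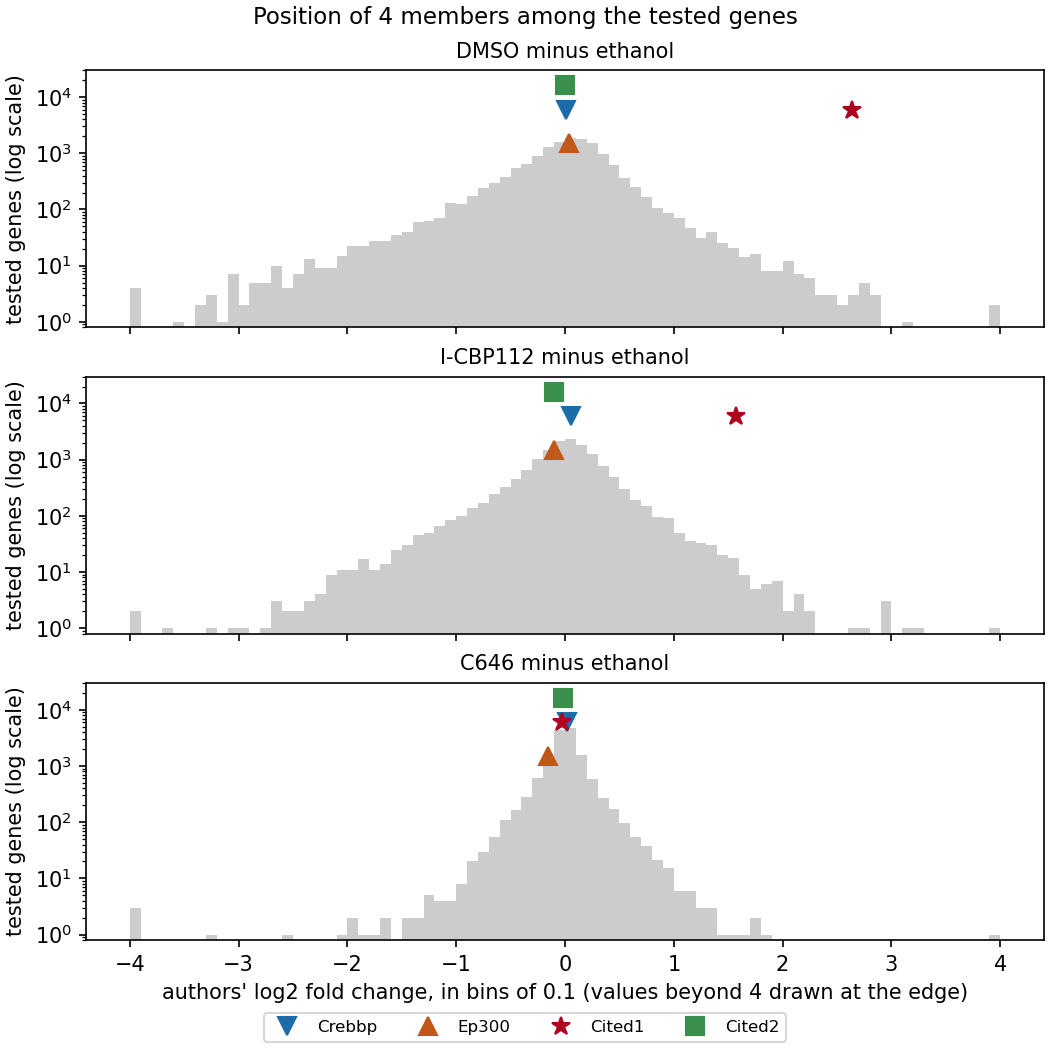
Histograms of the authors' log2 fold changes of the 14830 tested genes in bins of 0.1 (number of genes, log scale), with the 4 tested members marked; the height of a marker has no meaning. Cited1 lies at 2.64 with DMSO and 1.57 with I-CBP112, in the right tail, and at -0.03 with C646, while the other members lie near 0 in each.

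The treatments were then compared with each other, using a standard error rebuilt from those deposited and Benjamini-Hochberg adjustment over the 14830 tested genes. Cited1 was lower with I-CBP112 than with DMSO, at 549.5 against 1150.1 normalised counts. The difference was -1.07 ± 0.21 (SE, log2), or 0.478-fold (95% interval 0.357 to 0.640), with an adjusted p of 5.20e-05 from the rebuilt error. With the largest standard error that the tables allow, the adjusted p of this difference was 0.0495. It was the only one of the 4 tested members to differ, where 6.97% of tested genes did and 2.66% were lower with I-CBP112. Cited1 was 6.37-fold lower with C646 than with DMSO (log2 difference -2.67 ± 0.22, adjusted p = 3.74e-30 from the rebuilt error), where 15.8% of tested genes differed and 7.86% were lower with C646. It was 3.04-fold higher with I-CBP112 than with C646 (95% interval 2.24 to 4.13, adjusted p = 1.51e-10 from the rebuilt error), where 9.80% of tested genes differed and 4.69% were higher with I-CBP112. The 2 inhibitors were used at the same dose and time, and Cited1 was the tested member that differed between these groups. Their solvents are not named, so inhibitor and solvent cannot be told apart here either.

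For the other members no difference between treatments passed. Ep300 gave the widest separation of the acetyltransferases, -0.19 ± 0.15 between C646 and DMSO (log2, adjusted p = 0.463 from the rebuilt error) and -0.14 ± 0.15 between I-CBP112 and DMSO (adjusted p = 0.749). Crebbp differed by 0.04 ± 0.21 between I-CBP112 and DMSO and by 0.01 ± 0.21 between C646 and DMSO. Cited2 differed by -0.10 ± 0.19 between I-CBP112 and DMSO, and by -0.01 ± 0.19 between C646 and DMSO, a sign that turns under another scaling (0.02). Cited4 had no adjusted p.

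Divided by the length of the longest annotated transcript, the levels can be set beside each other. With ethanol, Crebbp stood at 177 normalised counts per kilobase, Ep300 at 180 and Cited1 at 169, so these 3 did not differ beyond their spread, while Cited2 stood at 626 and Cited4 at 8.20. With DMSO, Cited1 was first in that order, at 1055 per kilobase, ahead of Cited2 at 625, Ep300 at 184 and Crebbp at 179. With I-CBP112, Cited2 stood at 585 per kilobase (95% interval 486 to 704) and Cited1 at 504 (409 to 621), which overlap. With C646 the order was that of ethanol for the CITED genes, with Cited2 at 620 and Cited1 at 166 per kilobase.

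Of the summed CITED level per kilobase, Cited1 made up 21.1% in ethanol, 62.4% in DMSO, 45.8% in I-CBP112 and 20.9% in C646, and Cited2 made up 77.9%, 37.0%, 53.1% and 78.1%. The sum itself was 804 per kilobase in ethanol, 1692 in DMSO, 1101 in I-CBP112 and 794 in C646. Crebbp and Ep300 together stayed between 341 and 363 per kilobase. The ratio of CITED to CBP and p300 transcripts per kilobase was thus 2.25 in ethanol, 4.66 in DMSO, 3.13 in I-CBP112 and 2.33 in C646. These ratios depend on the transcript length chosen. With the median length of a gene's annotated transcripts, the levels with ethanol were 990.3 for Crebbp, 2224 for Ep300, 304 for Cited1 and 763 for Cited2 per kilobase, which puts Ep300 first. On that scale the CITED genes together stood below Crebbp and Ep300 together under every treatment, the reverse of the ratios above. With DMSO, for example, Crebbp stood at 998 and Ep300 at 2277 per kilobase of median length. Cited1 was then above Cited2 with I-CBP112 as well, at 905 against 713, and with DMSO at 1895 against 762.

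**Figure D4:**
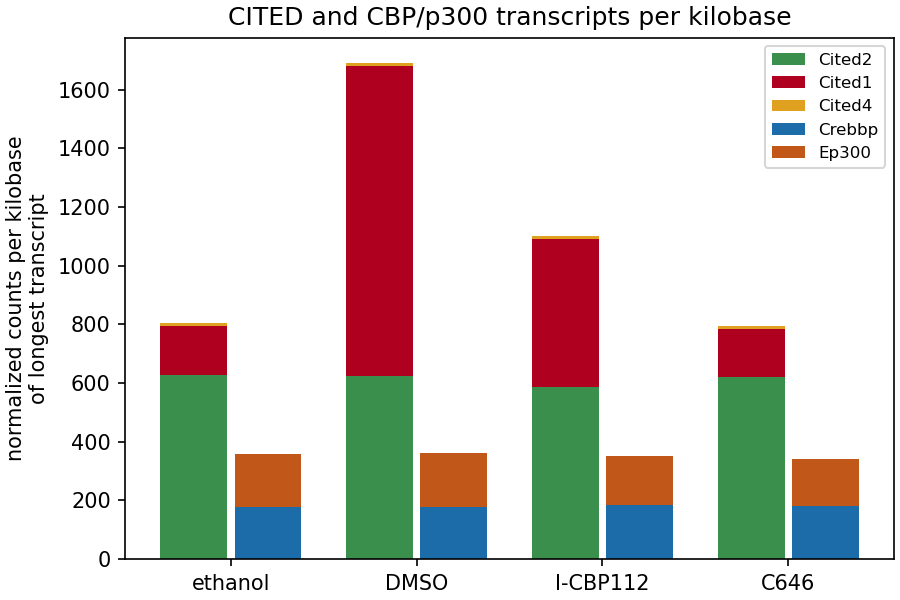
Normalised counts per kilobase of the longest transcript as rebuilt group means of 2 libraries, stacked for the CITED genes (left bar) and for Crebbp and Ep300 (right bar) of each treatment. On this length Cited1 is above Cited2 with DMSO (1055 against 625), while with median lengths it is so with I-CBP112 too, and Crebbp and Ep300 stay between 161 and 184.

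The upstream sequences of Cited1 and Cited2 are shown because these are the 2 tested CITED genes, of which 1 rose and the other did not pass. Both are the 250 bases before the transcription start in RefSeq (GRCm38.p6), that of Cited1 at chrX:102252182-102252431 on the minus strand for the outermost of its 3 starts, and that of Cited2 at chr10:17722978-17723227 on the plus strand. Capitals mark matches to 5 short motifs searched on both strands: the TATA box TATAAA, the CREB site core TGACG, the HIF site core ACGTG, the GATA factor core GATAA and the CCAAT box.
Cited1: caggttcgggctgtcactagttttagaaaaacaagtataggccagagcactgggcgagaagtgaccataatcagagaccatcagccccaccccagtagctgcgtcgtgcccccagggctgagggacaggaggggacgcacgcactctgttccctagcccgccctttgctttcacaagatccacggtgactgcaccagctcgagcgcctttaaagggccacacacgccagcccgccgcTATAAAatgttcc
Cited2: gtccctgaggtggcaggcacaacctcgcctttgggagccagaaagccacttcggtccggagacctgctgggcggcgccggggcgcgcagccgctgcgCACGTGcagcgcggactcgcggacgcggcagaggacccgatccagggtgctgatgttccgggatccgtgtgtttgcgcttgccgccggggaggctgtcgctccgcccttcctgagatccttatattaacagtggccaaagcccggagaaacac
The Cited1 window holds a single match, TATAAA, at positions -13 to -8 counted from the start, and TATAAA was found in 12.4% of all 32817 promoter windows of this kind. The Cited2 window holds no TATAAA. It holds ACGTG on both strands, the 2 matches overlapping at positions -153 to -148, and ACGTG was found in 16.6% of all windows. The GC content was 58.0% for Cited1 and 66.8% for Cited2. The windows of the other 2 Cited1 starts hold the TATA box, the HIF core and the CCAAT box in 1 case and the CREB and GATA cores in the other. Of all windows, 17.7% hold the CREB core, 22.6% the GATA core and 33.8% the CCAAT box. Binding and start usage were not analysed here, and a match describes letters only.

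The tested genes next to Cited1 did not pass the test. On the X chromosome the nearest tested genes are Hdac8, a histone deacetylase 32458 bases away, and Rps4x, a ribosomal protein gene 57987 bases away on the other side. The log2 fold change of Hdac8 in the authors' deposited tables was 0.34 ± 0.22 with DMSO (DESeq2 adjusted p = 0.321) and 0.33 ± 0.22 with I-CBP112, and that of Rps4x was -0.07 ± 0.11 and 0.13 ± 0.11. Of Xist, the RNA of the inactive X, and 4 tested Y-linked genes none passed DESeq2's test in any comparison, with 1 unadjusted p under 0.05, with I-CBP112. Over all tested genes 16.0% passed with DMSO and 9.90% with I-CBP112, so the absence of calls among so few genes says little. The Xist log2 fold change was -0.13 ± 0.20 in DMSO, -0.46 ± 0.20 in I-CBP112 and -0.33 ± 0.20 in C646 in the authors' deposited tables. Beside Cited2, the muscle gene Txlnb, 70552 bases away, rose by 1.31 ± 0.20 with DMSO and 0.91 ± 0.20 with I-CBP112 (log2, DESeq2 adjusted p = 5.12e-09 and 0.000252) in the authors' deposited tables, although Cited2 did not.

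The genes most like Cited1 were sought by the distance over the 3 log2 fold changes among 13308 genes whose mean normalised count was at least 50. The nearest was Slc1a2, a glutamate transporter, at a distance of 0.27, with log2 fold changes of 2.81 ± 0.41, 1.41 ± 0.41 and 0.11 ± 0.43 for DMSO, I-CBP112 and C646 in the authors' deposited tables. It was followed by 1700007B14Rik (distance 0.33), the sodium/potassium/calcium exchanger gene Slc24a2 (0.35), the neuronal pentraxin gene Nptx2 (0.40) and the striated muscle gene Abra (0.40). Abra, for example, stood at 2.32 ± 0.22, 1.81 ± 0.23 and -0.0015 ± 0.24 in the authors' deposited tables. Of these 5, 1 remained when each fold change was divided by its standard error first.

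HIF-1, whose alpha subunit docks where CITED2 does, was followed through its pathway genes and targets. Of 10 tested pathway genes, 1 fell and none rose with DMSO (7.90% of all tested genes fell). With I-CBP112 none passed DESeq2's test, where 9.90% of all tested genes did, and 2 had an unadjusted p under 0.05. The gene that fell was Hif3a, an alpha subunit that can act as an inhibitor, with a log2 fold change of -1.08 ± 0.23 (DESeq2 adjusted p = 4.76e-05) in the authors' deposited table. Hif1a itself stood at -0.21 ± 0.11 with DMSO and 0.17 ± 0.11 with I-CBP112 in the authors' deposited tables, neither past the test. The difference between those treatments, 0.38 ± 0.11, passed with the rebuilt error (adjusted p = 0.0197) but not with its upper bound (0.393). The median of the pathway genes was 0.04 with DMSO and 0.14 with I-CBP112 in the authors' deposited tables.

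Of 19 tested HIF targets, 3 rose and 1 fell with each of DMSO and I-CBP112, that is 4 of 19, where 16.0% of all tested genes passed with DMSO and 9.90% with I-CBP112. With DMSO the mitophagy receptor Bnip3l rose by 0.55 ± 0.13, the pyruvate dehydrogenase kinase Pdk1 by 0.78 ± 0.18 and the glycolytic regulator Pfkfb3 by 0.99 ± 0.22 (log2, from the authors' deposited table). With I-CBP112 Bnip3l rose by 0.37 ± 0.13, the glucose transporter Slc2a1 by 0.57 ± 0.15 and the repressor Bhlhe40 by 0.72 ± 0.13 in the authors' deposited table. Vegfa, the endothelial growth factor, fell by 0.57 ± 0.16 with DMSO and by 0.64 ± 0.16 with I-CBP112 in the authors' deposited tables. Slc2a1 and Bhlhe40 were also higher with I-CBP112 than with DMSO, by 0.67 ± 0.15 and 0.62 ± 0.13 (log2, adjusted p = 0.000437 and 0.000189 from the rebuilt error). Pfkfb3 was lower, by -0.75 ± 0.22 (adjusted p = 0.0170 from the rebuilt error). With the upper bound of the error none of these 3 differences passes (adjusted p = 0.0824 for Slc2a1, 0.0601 for Bhlhe40 and 0.390 for Pfkfb3). The median of the targets was 0.10 with DMSO and 0.13 with I-CBP112 in the authors' deposited tables.

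CBP is named for its binding to CREB. Of 11 tested CREB and CRTC genes 1 passed with each of DMSO and I-CBP112, where 16.0% and 9.90% of all tested genes did, and uncalled genes of the list are not shown to be unchanged. Creb3l1, a membrane-bound family member of secretory cells, fell by 0.91 ± 0.23 with DMSO and by 1.12 ± 0.23 with I-CBP112 (log2, from the authors' deposited tables). Of 16 tested CREB targets, 1 rose and 5 fell with DMSO, where 8.07% of all tested genes rose and 7.90% fell. With I-CBP112 1 rose and 1 fell, where 4.65% and 5.25% did. Ppargc1a, the coactivator of mitochondrial genes, rose by 0.61 ± 0.19 with DMSO and 0.87 ± 0.19 with I-CBP112 in the authors' deposited tables. The transcription factor gene Cebpb fell by 0.61 ± 0.15 and 0.59 ± 0.15 in the same pair of the authors' deposited tables. With DMSO the phosphodiesterase genes Pde4d and Pde4b, the kinase gene Sik1 and the GTPase gene Gem fell by 0.41 to 0.70 (log2) as well in the authors' deposited table.

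Of 16 genes for transcription factors reported to work with CITED proteins, 10 were tested. Of these 2 fell and none rose with DMSO, where 7.90% of all tested genes fell, and 2 fell and none rose with I-CBP112, where 5.25% fell. The oestrogen receptor gene Esr1, whose product is a CITED1 partner, fell by 1.15 ± 0.37 with DMSO and by 1.16 ± 0.37 with I-CBP112 (log2, from the authors' deposited tables). The adipogenic receptor gene Pparg fell by 0.87 ± 0.28 with DMSO, and the LIM factor gene Lhx2 fell by 1.08 ± 0.37 with I-CBP112, in the authors' deposited tables. The genes of the AP-2 factors, classical CITED partners, had mean normalised counts of 213 (Tfap2b) and 29.8 (Tfap2a) where tested, and neither passed. The genes of SMAD2, SMAD3 and SMAD4, through which TGF-beta signals, did not pass under either treatment. The median of this list was -0.39 in DMSO, -0.45 in I-CBP112 and -0.21 in C646 in the authors' deposited tables.

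Of 23 tested genes for further factors that recruit CBP and p300, 2 rose and 1 fell with each of DMSO and I-CBP112, that is 3 of 23, where 16.0% and 9.90% of all tested genes passed. Among them were Foxo3 and Jun, higher, and Klf4, lower, with DMSO, and Ctnnb1, higher, and Mybl2, lower, with I-CBP112. Of 19 coactivator and partner enzyme genes, the Notch coactivator gene Maml2 fell by 0.44 ± 0.16 with DMSO and by 0.63 ± 0.16 with I-CBP112 in the authors' deposited tables, and no other passed. That is 1 of 19 with each, where 7.90% and 5.25% of all tested genes fell. Of 7 tested genes that depend on CITED2 in development, Mecom fell under both treatments and Cdkn2a with DMSO. So 2 of 7 fell with DMSO and 1 of 7 with I-CBP112, against the same shares of all tested genes. Of the 4 GHMT genes, which the viruses carry and 2 of whose products (GATA4 and MEF2C) recruit p300, Mef2c rose by 0.76 ± 0.13 with DMSO and 0.50 ± 0.13 with I-CBP112 in the authors' deposited tables. Gata4 rose by 0.44 ± 0.12 and 0.33 ± 0.12 and Hand2 by 0.48 ± 0.12 and 0.32 ± 0.12 in the authors' deposited tables, while Tbx5 did not pass. The lowest of the 4 log2 fold changes was nonetheless 0.44 with DMSO and 0.30 with I-CBP112. With each treatment 3 of the 4 rose, where 8.07% and 4.65% of all tested genes did. Viral and endogenous RNA of these 4 genes are counted together. With C646 no gene of any of these lists passed DESeq2's test, and none had an unadjusted p under 0.05.

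**Figure D5:**
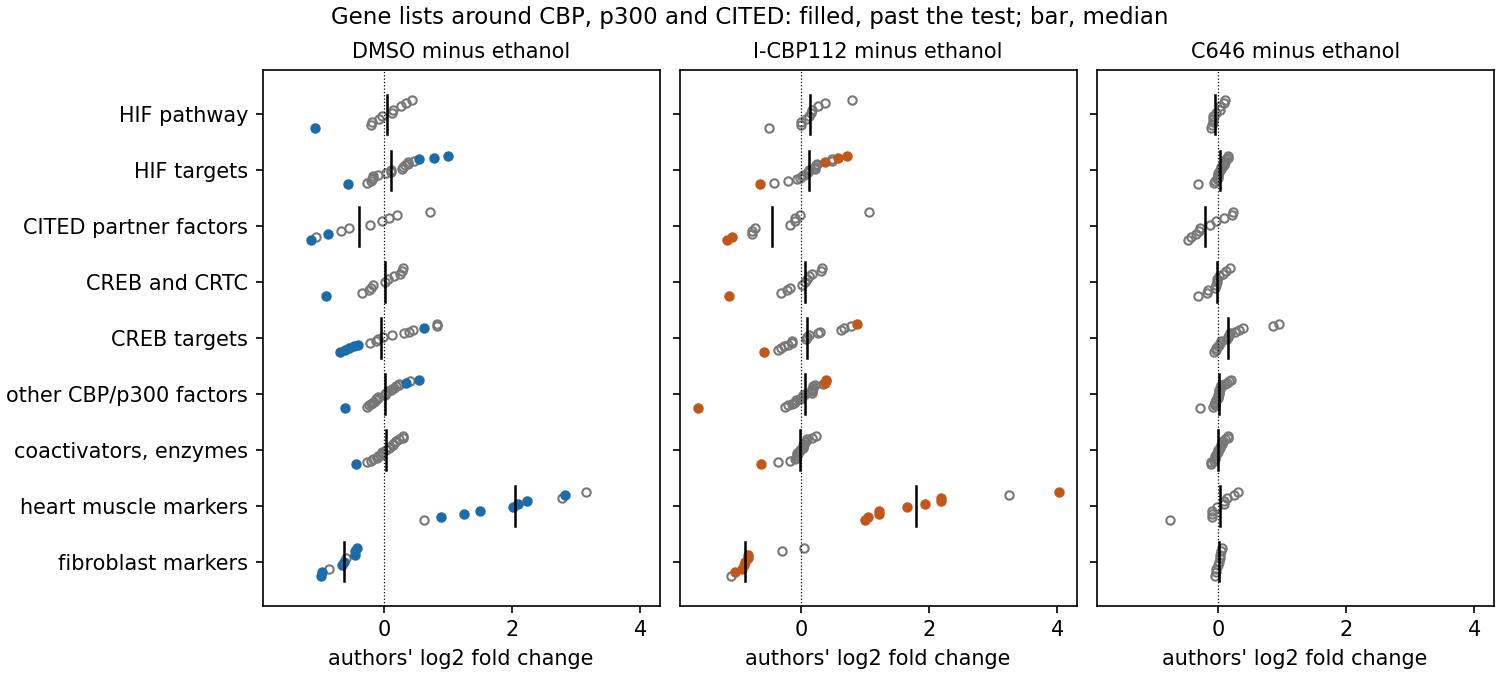
Authors' log2 fold changes of the tested genes of each list under the 3 treatments; each point is a gene, filled where the authors' adjusted p is below 0.05, and the bar is the list's median. The CITED partner factors have medians of -0.39 with DMSO and -0.45 with I-CBP112, the medians of the other CBP and p300 lists drawn lie between -0.06 and 0.14 under these treatments, the heart muscle markers lie to the right with DMSO and I-CBP112 (medians 2.05 and 1.79), and no point is filled with C646.

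Heart muscle markers rose in the treatments in which Cited1 did. Of 10 tested, 7 rose with DMSO and 9 with I-CBP112, where 8.07% and 4.65% of all tested genes rose. None fell, and the medians were 2.05 and 1.79 (log2) in the authors' deposited tables. Actn2, the Z-disc actinin, rose by 2.83 ± 0.14 and 2.18 ± 0.14 and the atrial myosin light chain gene Myl7 by 2.09 ± 0.11 and 1.21 ± 0.11 (log2, from the authors' deposited tables). Between I-CBP112 and DMSO the list had no common direction, with 5 differences above 0 and 5 below, a median of 0.05 and a range from -0.88 to 0.88 (log2). Of these, Myl7 (-0.88 ± 0.11) and Actn2 (-0.65 ± 0.14) were lower with I-CBP112 (adjusted p = 3.43e-13 and 0.000116 from the rebuilt error), and the other 8 did not pass. Actn2 does not pass with the upper bound of the error (adjusted p = 0.0661). Fibroblast markers went the other way, with 7 of 9 lower with DMSO and 6 of 9 with I-CBP112 (medians -0.63 and -0.88 in the authors' deposited tables). Of all tested genes 7.90% and 5.25% fell. The part of such shifts in the Cited1 values was not tested.

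Cell types in which Cited1 is known to be expressed were looked for by their markers. Of 9 melanocyte markers, 4 were tested; Dct was at 0, and Tyr and Tyrp1 had mean normalised counts of 1.93 and 0.972. The summed melanocyte level was 1966 normalised counts in ethanol, 1351 in DMSO, 1374 in I-CBP112 and 1915 in C646, and more than any other marker it was made up of Ednrb, which had 1133 of these counts in ethanol and 379 in DMSO. Other markers differed from it, with Mitf at 631 in ethanol and 840 in DMSO (not past the test), and Mlana lower with DMSO and higher with I-CBP112 (log2 fold changes -1.14 ± 0.31 and 0.87 ± 0.29 in the authors' deposited tables). Of 7 nephron progenitor markers, 5 were tested. Their sum was 2625 in ethanol, 2252 in DMSO, 2068 in I-CBP112 and 2594 in C646, with Six2 at 35.9 and Pax2 at 1.95 mean normalised counts. None of 6 trophoblast markers was tested, their sum lay between 33.7 and 36.7 in the 4 groups, and Cdx2 was at 0. The part of these cell types in the Cited1 values was not tested. Macrophage markers summed to 3163 normalised counts in ethanol, 3294 in DMSO, 2587 in I-CBP112 and 2965 in C646, endothelial markers to 1008, 578, 660.3 and 1001, and skeletal muscle markers, with Myod1 at 0, to 298, 365, 283 and 312. The skeletal muscle sum joins opposite changes. Of 3 tested, 1 rose and 1 fell with DMSO (8.07% and 7.90% of all tested genes did), with log2 fold changes from -2.67 to 1.72. The epithelial sum was 118 normalised counts in ethanol, 116 in C646, 40.2 in DMSO and 40.7 in I-CBP112. Of its 6 markers only the keratin gene Krt14 was tested, and the other 5 had mean normalised counts under 26.1. Krt14 fell in DMSO and in I-CBP112 (log2 fold changes -3.38 and -3.23 in the authors' deposited tables). The sum therefore does not describe the epithelial markers as a set.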

How the data were processed

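RNA sequencing was done on 8 libraries, 2 per treatment, grouped by the treatment in the labels. Per the submitters' processing notes, the authors quantified reads with kallisto 0.43.1 on GRCm38.p5 and used DESeq2 for the tests. Its version and the summing to genes are not given in the sources used here. In the deposited tables the signal is the authors' mean normalised count over all libraries, the log2 fold change and its standard error are the authors', the Wald statistic is a deposited score, and each p-value and adjusted p-value is the authors' DESeq2 value (threshold 0.05). The deposited transcript length, another column, was not used. Adjusted p-values cover 14830 genes (mean count at least 26.1), but all 34250 counted genes for C646. No reference is named. Of 2312 genes with about 1 count in all, 592 were lower by over 1 log2 in all 3 tables, as genes seen only in an untabled group would be.

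Computed here, with Python 3.11.15, pandas 2.3.3, numpy 2.4.6 and scipy 1.17.1, were group means, from the mean count and the fold changes, and differences between treatments. Their standard error was derived from the 3 deposited errors under 1 dispersion per gene. It was checked on data simulated under that same form, so departures from the form were not tested. The same formula gave back the deposited errors, which were its input, to within 1% for 98.9%, 99.0% and 99.0% of tested genes. That agreement shows only that 1 dispersion per gene serves all 3 comparisons. Normal p-values were adjusted by Benjamini-Hochberg. Genes were named as all members, the list genes past the test, the 5 genes nearest to a changed member and the neighbouring genes. A gene counted in 1 list is not reported here by name. Members and lists were chosen with earlier results of these data known. Nothing says that libraries came from separate cultures, so p-values measure the spread between these libraries, which may be technical. Other adjustments, scalings, thresholds and transcript lengths were tried as alternatives. Sequences are from GENCODE M21 and RefSeq, and amino acid sequences were not used here.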

Additional observations from a re-analysis of the deposited data

How the results depend on the processing

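No paired analysis was possible because the tables hold no values of single libraries. The labels give each group the library numbers 2 and 3, so same-numbered libraries may belong together, which the fit behind the tables is not stated to use, and for the same reason no library could be left out in turn. Of 170 values recomputed under alternatives, 160 kept their direction and their side of the threshold. Only centring and scaling alter a log2 difference, so the other alternatives could not turn its direction. Members other than Cited1 lay far from the threshold, so few of their values could cross it. Of the 5 that turned, all lay close to 0: centring on the median gene moved the log2 difference of Crebbp with DMSO against ethanol to -0.0228, that of Ep300 to -0.00057 and that of Cited2 between C646 and DMSO to 0.0217, and scaling to equal totals moved Crebbp to -0.0073 and Cited2 to 0.0151 in the same comparisons. Every Cited1 call held under the adjustments, scalings and thresholds tried, the one closest to the threshold being I-CBP112 against DMSO (adjusted p up to 0.0495 with the upper bound of the standard error, from 5.20e-05). Over all tested genes that bound cut the calls from 1034 to 237 for I-CBP112 against DMSO, from 2349 to 839 for C646 against DMSO and from 1454 to 501 for I-CBP112 against C646, and a threshold of 0.01 gave 596, 1526 and 951. Against ethanol that threshold gave 1522 in place of 2368 genes for DMSO and 976 in place of 1468 for I-CBP112. Taking median transcript lengths moved the levels per kilobase with ethanol to 990.3 for Crebbp, 2224 for Ep300, 304 for Cited1 and 763 for Cited2. Of the 5 genes most like Cited1, 1 was shared when distances were taken over standard errors. An adjustment of the C646 values over the 14830 tested genes was added after seeing the data and changed no member's call. Depth limits Cited4, with about 12.3 mean normalised counts. Crebbp has a standard error above that of genes of its level, 0.21 against a median of 0.14 (log2) with DMSO. The same holds for Cited2, 0.192 against 0.146, for Cited1, 0.223 against 0.189, and slightly for Ep300, 0.151 against 0.144.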
